A study of Mus musculus with 16 samples.

Results

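The 3′ UTR clusters were the regions in which RNA crosslinked to PGC-1α mapped to the 3′ untranslated end of messenger RNAs in mouse primary hepatocytes. A cluster was counted when its midpoint lay, on the same strand, in the 3′ UTR of the protein-coding transcript with the longest coding sequence of a gene with more than 1 exon, in the GENCODE M21 annotation of mm10. In all, 82735 of 1331383 clusters met this rule, or 6.21%, and they lay in 7216 of 19752 genes with such a 3′ UTR. The rule used position only, so the enrichment, sequence and treatment values below were not used to choose the clusters.

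PGC-1α is a coactivator of transcription whose level rises in the fasted liver, where it is best known for driving gluconeogenesis and oxidative metabolism. Its carboxy-terminal end carries a serine and arginine rich stretch and an RNA recognition motif, features shared with proteins of messenger RNA processing. A 3′ UTR follows the stop codon of a messenger RNA and ends at the poly(A) site. It holds most of the elements that set message stability, localization and translation, including AU-rich elements, Pumilio sites and microRNA target sites.

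The libraries were made by eCLIP, in which ultraviolet light fixes proteins to the RNA they touch and the RNA recovered with an antibody is sequenced from a gel band. The cells were primary hepatocytes from liver of C57BL/6J mice, kept overnight in starvation medium and crosslinked at 254 nm and 400 mJ/cm2. Glucagon cells received 200 nM glucagon for 3 h and control cells received none, and a lower and an upper band were taken from each. This gave 4 groups (glucagon lower, glucagon upper, control lower and control upper) of 2 immunoprecipitation libraries each, 8 in all, beside 8 input libraries that were not analysed here. The labels do not say whether the 2 replicates came from separate animals or cultures, so p-values measure the spread between these libraries only. They also do not say whether the lower and upper band of a replicate came from the same cells. The sign-flip tests below count the 8 libraries as separate, so their p-values may be too small if bands share cells.

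Glucagon lower replicate 1 had 26279 clusters in total, and the other libraries had 97629 to 260814. Its 2546 clusters in 3′ UTRs also stood below the 7474 to 13407 of the other 7 libraries. Of 10 hepatocyte marker genes, 9 of them in the annotation used, 7 had a 3′ UTR cluster, beside 36.5% of all genes with a 3′ UTR. They had 161 clusters in all and none above input, where 0.943% of all 3′ UTR clusters were. Of the marker genes of other liver cells, none of 8 Kupffer, 8 sinusoidal endothelial and 6 erythroid genes had one, against 1 of 8 stellate and 2 of 6 cholangiocyte genes with 2 and 9 clusters.

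Each cluster carried the authors' log2 fold over input and −log10 p-value. A cluster is called above input here when its log2 fold was over 0 and its −log10 p at least 3, and enriched when its log2 fold was at least 3 as well. Clusters above input in 3′ UTRs recurred at few places. Joining overlapping clusters above input gave 372 sites in 228 genes, of which 229 (61.6%) were above input in 1 library only. Those with a base covered in at least 6 of the 8 libraries numbered 16, in 11 genes. For the most recurrent site of each of these 11 genes, 30 bases are shown, centred on the part covered in most libraries. They are shown as the most recurrent site of each gene. Further sites of Mafg (1617 to 1725 nt) and Klf6 (129 to 390 and 407 to 498 nt), covered in 7 libraries each, are not printed. The clusters above input of 2010111I01Rik and Tcf25 lay in an intron of another transcript. Those of Rbm14 and Tcf25 lay inside another gene, so these 3 stretches may not be 3′ UTR RNA. The stretches are read from the GENCODE M21 transcripts, 5′ to 3′, with runs of 3 or more G in capitals.
Klf6: tgtgtgaaaggactttctggtgtctggtgc
Mafg: agaagtccagtGGGGctctcagcttaatcc
Dhx9: ctggactctgtcggagcctgtgcatacagt
Tcf25: tcctccagtgtcctcagaaacagtcccaga
Rbm14: ggaatggtttcctggcgaccaatggaatta
2010111I01Rik: ggaagaaggctcaggatctctggagcacct
Dynll2: GGGcaGGGGtGGGtgtgcagtctctaaGGG
Hsd17b11: acGGGacacgacgacGGGGacgatgacgat
Cd63: ggtcttttcatggagtggattctccaggtt
Ftcd: tgattggtggtggtatcctgataccctctg
Tkt: tacacattccaGGGaggttctggcagaggt

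The Klf6 site ran from 555 to 879 nt after the stop codon and was the 1 site with a base covered in all 8 libraries. Its printed stretch lay at chr13:5867912-5867941, 629 to 658 nt after the stop codon. The Mafg, Dhx9 and Tcf25 sites were covered in 7 libraries, 3 glucagon and 4 control. The Mafg stretch lay at chr11:120628867-120628896, 388 to 417 nt after the stop codon. The Dhx9 stretch began 3 nt after the stop codon, at chr1:153456037-153456066. The other 7 were covered in 6 libraries each. A run of 3 or more G occurred in 4 of the 11 stretches, which held 5 to 16 G among their 30 bases.

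Clusters were denser near the stop codon than near the transcript end in every library. Of 3 equal parts of the 3′ UTR, the part next to the stop codon held 42.3 ± 1.72% of a library's 3′ UTR clusters and the part next to the transcript end 27.0 ± 1.87% (SD, n = 8). The difference of 15.3 percentage points had the same direction in 8 of 8 libraries (exact two-sided sign-flip test, p = 0.00781, the smallest that 8 libraries allow; 0.0104 after Benjamini-Hochberg adjustment over 8 such tests). Cut into 10 equal parts, the 3′ UTR held 12.5% to 17.4% of the clusters in the part next to the stop codon and 5.34% to 8.44% in the part next to the transcript end.

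**Figure D1:**
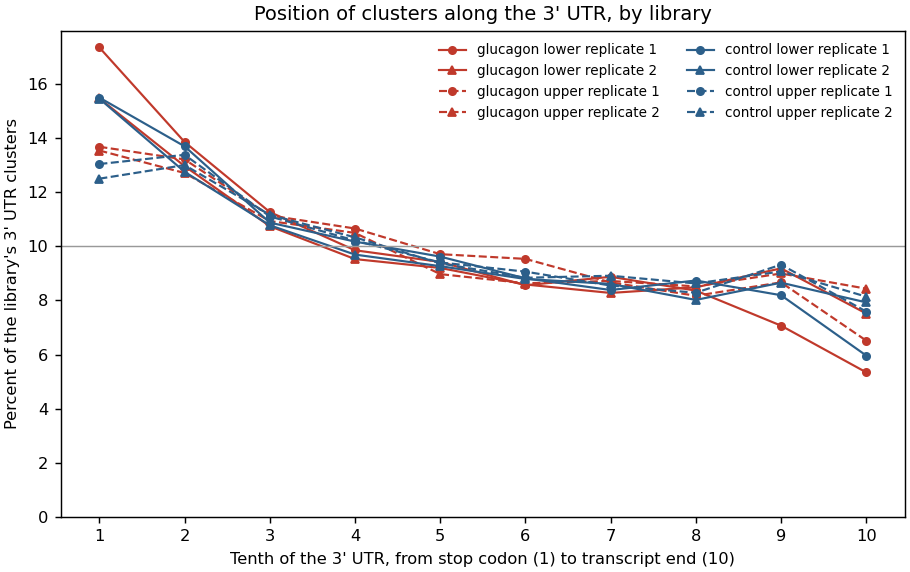
Each line is 1 library and gives the percent of its 3′ UTR clusters (vertical axis) in each of 10 equal parts of the 3′ UTR from stop codon to transcript end (horizontal axis), with glucagon in red, control in blue, lower band solid and upper band dashed. Every library lay between 12.5% and 17.4% in the part next to the stop codon and between 5.34% and 8.44% in the part next to the end, and the grey line marks an even spread.

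Counted per kilobase, density fell beyond 250 nt with distance from the stop codon and, less steeply, with distance from the transcript end. The first 100 nt held a median over libraries of 2.60 clusters per kb of 3′ UTR, and the stretch from 101 to 250 nt held 2.59. In the lower band the first 100 nt held 2.95 and 3.12 with glucagon and 2.79 and 2.82 in control. The stretch from 101 to 250 nt held less there, at 2.24, 2.89, 2.52 and 2.61. In the upper band the first 100 nt held 2.14 and 2.42 with glucagon and 2.32 and 2.29 in control. The stretch from 101 to 250 nt held more there, at 2.38, 2.76, 2.60 and 2.57. This contrast of the bands was not tested. From 1001 to 2000 nt the median was 1.05, and beyond 4000 nt it was 0.488. Near the transcript end the last 100 nt held 1.85 per kb and the stretch from 101 to 250 nt before the end held 2.07, against 1.15 from 1001 to 2000 nt and 0.851 beyond 4000 nt before it. The share in the part next to the stop codon, again of 3, was larger in long 3′ UTRs, with a median of 47.2% above 4000 nt against 35.7% up to 500 nt. Over genes with a cluster in the library, the 3′ UTR held 0.999 ± 0.217 clusters per kb and the coding sequence 2.15 ± 0.366 (SD, n = 8), lower in the 3′ UTR in 8 of 8 libraries (exact sign-flip test, p = 0.00781, adjusted 0.0104). The files hold no read counts, so cluster density could not be set against transcript level.

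Few 3′ UTR clusters stood above input. Over the 8 libraries 780 of 82735 did, or 0.943%, against 6.1% of all clusters of the series, and 104 were enriched, or 0.126%, against 2.7%. Per library 0.951 ± 0.244% of 3′ UTR clusters and 6.50 ± 1.78% of all other clusters were above input (SD, n = 8), a difference of −5.55 percentage points that was lower in the 3′ UTR in 8 of 8 libraries (exact sign-flip test, p = 0.00781, adjusted 0.0104). The difference for enriched clusters was −2.94 points, with the same p.

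Set against coding sequence, the 3′ UTR share above input was 0.951 ± 0.244% against 0.723 ± 0.271%, higher in 6 of 8 libraries (exact sign-flip test, p = 0.0313, adjusted 0.0313). That difference of 0.229 points depended on the genes and the threshold used. In genes with a cluster in all 8 libraries it was 1.05 points (exact sign-flip test, p = 0.00781). With every log2 fold over 0 counted, at any p, it was 11.6 points (exact sign-flip test, p = 0.00781). Without the 10 genes with most 3′ UTR clusters above input, a setting added after the data were seen, it was −0.0687 points (exact p = 0.258). Leaving out any 1 of the libraries other than the first glucagon replicate of either band gave an exact p of 0.0625.

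**Figure D2:**
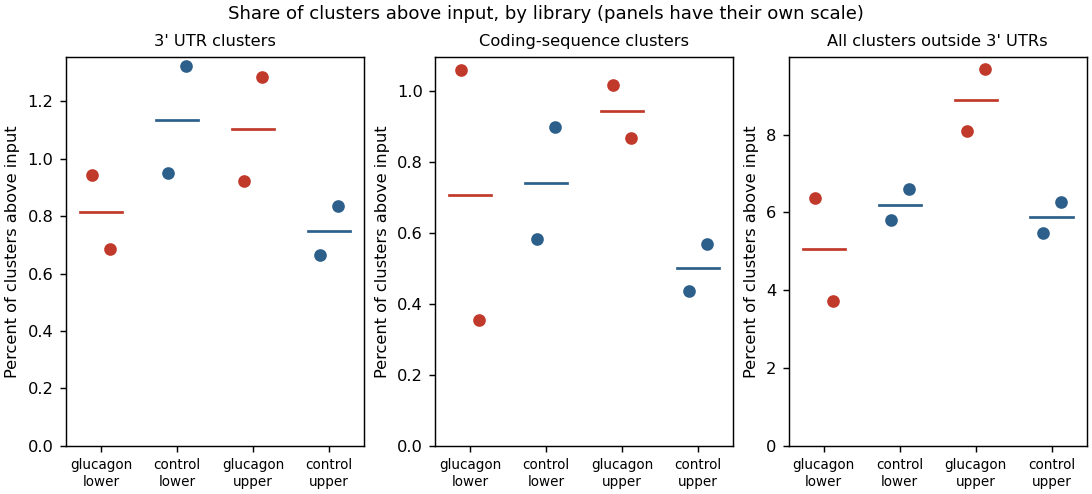
Each point is 1 library and gives the percent of clusters above input (vertical axis, own scale in each panel) among 3′ UTR, coding-sequence and all other clusters, by treatment and band, with bars at the mean of the 2 replicates. The 3′ UTR values ran from 0.666% to 1.32%, and glucagon libraries lay below both control libraries in the lower band and above both in the upper band.

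At the level of genes, 228 of 7216 genes with a 3′ UTR cluster had one above input in at least 1 library, or 3.16%, against 33.4% of genes when any cluster of the gene was counted. Of these, 123 were above input in 1 library only, 105 in 2 or more, 37 in 4 or more and 18 in 6 or more. Both libraries of a group agreed on 51 genes (0.707%, against 18.4% for any cluster). There were 9 such genes in glucagon lower, 19 in glucagon upper, 30 in control lower and 29 in control upper. An enriched 3′ UTR cluster was found in 70 of the 7216 genes, beside 26.8% of genes for any cluster. It recurred in both libraries of a group in 6 of them, beside 12.3% for any cluster, and 57 had it in 1 library only. The 228 genes had a median of 29 clusters over the 8 libraries, against 6 for the others. Of the 228, 161 (70.6%) were also above input outside the 3′ UTR, against 2767 of the 6988 others (39.6%).

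Only 3 genes were above input in the 3′ UTR of all 8 libraries, against 2.74% of genes for any cluster. These were Mafg, Klf6 and 2010111I01Rik. The 10 genes with most such clusters held 279 of the 780, or 35.8%. These leading genes, where no rule below brings them in, are named after their values were seen.

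**Figure D3:**
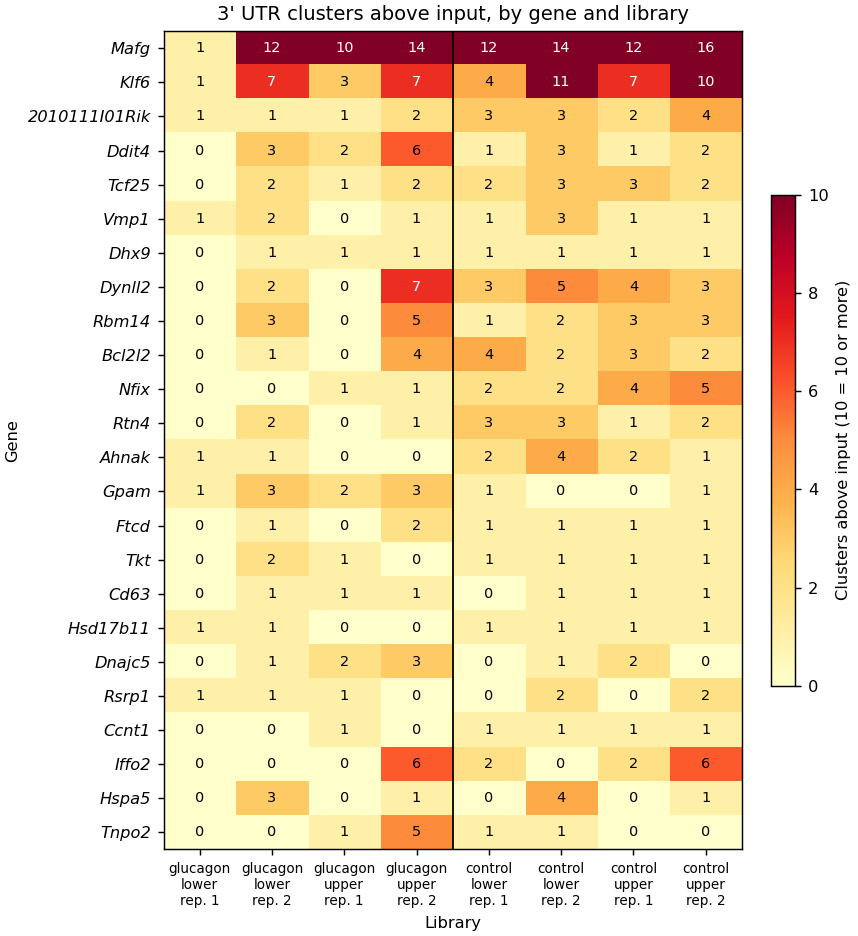
Rows are the 24 genes above input in the 3′ UTR of most libraries, columns are the 8 libraries with glucagon on the left, and each number (and colour) is the count of 3′ UTR clusters above input. Mafg and Klf6 had counts in every library, with 10 to 16 Mafg clusters in 7 of them and 1 in glucagon lower replicate 1.

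Mafg encodes a small Maf protein, a DNA-binding partner of NRF2 and other CNC factors in the oxidative stress response. Its 3′ UTR of 4167 nt (chr11:120625117-120629283, minus strand) held 107 clusters, of which 91 were above input and 14 enriched. The clusters above input numbered 1, 12, 10 and 14 in the glucagon libraries (lower 1, lower 2, upper 1, upper 2), against 12, 14, 12 and 16 in the control libraries. Apart from the 1 in glucagon lower replicate 1, the counts of the treatments overlapped. At least 1 Mafg cluster was enriched in each of the 8 libraries. The clusters above input spanned the 3′ UTR, from 125 to 4107 nt after the stop codon. The rest of the gene was similar, with 87 of its 90 clusters above input.

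Klf6, a Krüppel-like zinc finger transcription factor, had a different layout. In its 3′ UTR of 3111 nt (chr13:5867284-5870394, plus strand) 50 of 94 clusters were above input and none was enriched. Within 900 nt of the stop codon 48 of 54 clusters were above input, in 8 of 8 libraries. Beyond 900 nt only 2 of 40 were, in 2 of the 7 libraries with a cluster there. The boundary of 900 nt was set after the clusters were plotted, and the contrast is a description with no test. Outside its 3′ UTR, Klf6 had 13 of 41 clusters above input.

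**Figure D4:**
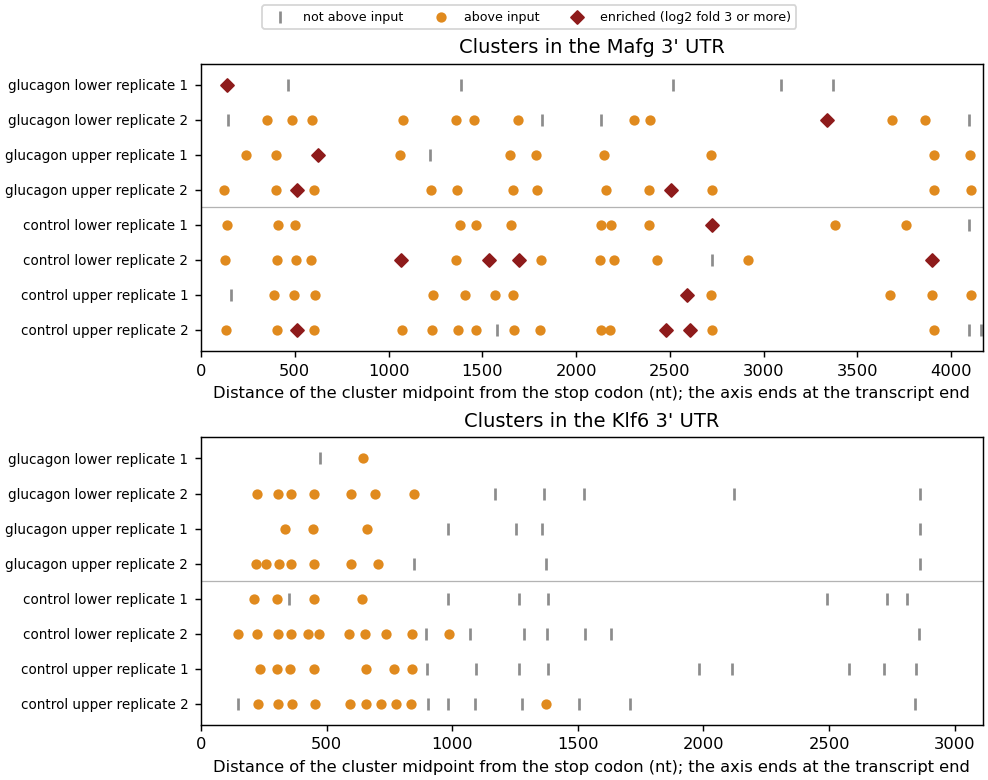
Each symbol is 1 cluster placed by the distance of its midpoint from the stop codon in nt (horizontal axis) in each library (rows, glucagon on top), for Mafg above and Klf6 below. Mafg clusters above input (circles) and enriched (diamonds) ran along the whole 3′ UTR, whereas 48 of the 50 Klf6 clusters above input lay in the first 900 nt.

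The remaining gene, 2010111I01Rik, had 17 of 26 clusters above input and 2 enriched in a 3′ UTR of 804 nt (chr13:63298853-63299656). All of them lay in an intron of another transcript of the gene, which had 401 of 1205 other clusters above input. The same placement held for Ahnak, a giant scaffold protein, and Tcf25, a factor of ribosome quality control. Among the 37 genes above input in 4 or more libraries, every such cluster lay in an intron of another transcript in 4 genes and inside another gene in 5, which came to 8 genes in all. In the first case 3′ UTR and intronic RNA cannot be told apart, and in the second RNA of the 2 genes cannot. Over all 780 clusters above input 13.3% lay inside another gene, against 4.12% of the other 3′ UTR clusters.

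Several messages outside those 8 genes are described next. Ddit4, a stress-induced inhibitor of mTORC1, had 18 of 37 clusters above input in 7 libraries, and its remaining gene body had 0 of 1. Dynll2, a light chain of cytoplasmic dynein and myosin V, had 24 of 74 in 6 libraries, 2 glucagon and 4 control. Cd63, a tetraspanin of late endosomes, had 6 clusters in a 3′ UTR of 82 nt, and each was above input in its own library. Dhx9, an RNA helicase, had 7 of 14 above input, all within 17 nt of the stop codon, where the cluster could also hold coding bases. Ftcd, which degrades histidine, had 7 of 16, Tkt, the transketolase of the pentose phosphate pathway, had 7 of 9, and Hsd17b11, a lipid droplet dehydrogenase, had 6 of 22. Nfix, a nuclear factor I transcription factor, had 15 of 67 in 6 libraries. The recurrent sites of Cd63 and Tkt also began at the first base of the 3′ UTR, so their clusters could hold coding bases too.

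The 10 genes with most 3′ UTR clusters had 22 of 1593 above input, or 1.38%, beside 0.943% of all 3′ UTR clusters, and 4 of the 10 genes had at least 1, beside 3.16% of genes. Zbtb20, a zinc finger repressor active in liver, had 330 clusters in 23858 nt and Lpp 173 in 13257 nt. Scd1, the stearoyl-CoA desaturase, had 167 in 3464 nt and the lipase Abhd2 had 153 in 5352 nt. None of the clusters of these 4 genes was above input. The 10 genes held 1.93% of all 3′ UTR clusters, and among them Dnajc5, a vesicle cochaperone, had most with 9 of 124.

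Vmp1, an endoplasmic reticulum protein of autophagy, was above input in 7 libraries, with 10 of 64 clusters. Of these 10, 7 lay in the gene of the microRNA miR-21a, whose hairpin is annotated inside the Vmp1 3′ UTR. The recurrent site covered nt 1166 to 1191 after the stop codon, and the mature miR-21a-5p covers nt 1167 to 1188. The stretch at chr11:86584116-86584145 is shown because it matches a mature microRNA, in capitals in the first line, and the RefSeq miRNA (GRCm38.p6) follows with its seed in capitals.
Vmp1: cggaTAGCTTATCAGACTGATGTTGActgt
miR-21a-5p: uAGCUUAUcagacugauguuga

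Clusters in the miR-21a gene were above input in both lower band libraries of each treatment. The highest log2 fold was 3.47 in glucagon lower replicate 1 and 2.39 in glucagon lower replicate 2, against 2.75 and 2.67 in the 2 control lower libraries. In the upper band the log2 fold was 1.86 and 2.77 with glucagon, against 0.82 and 0.67 in control, and only glucagon upper replicate 2 passed the p threshold. Whether the RNA came from the message or from the microRNA cannot be told apart.

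Glucagon libraries held a larger share of their clusters in 3′ UTRs. The share was 9.69% and 7.13% in glucagon lower, against 6.65% and 6.15% in control lower. In the upper band it was 7.66% and 6.25% with glucagon, against 5.50% and 5.10% in control. The glucagon libraries lay above both control libraries in each band. The mean difference was 1.83 percentage points (7.68 ± 1.46% against 5.85 ± 0.686%, SD, n = 4 each), and the exact two-sided permutation test within bands gave p = 0.0556, the smallest it allows (0.167 after adjustment over 3 measures), so the design could not reach a threshold of 0.05. Without glucagon lower replicate 1, the library with fewest clusters, the difference was 1.19 points (exact p = 0.111).

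The share in coding sequence moved the same way, at 28.9% on average in glucagon lower and 17.1% in glucagon upper, against 19.7% in control lower and 11.1% in control upper. Total clusters also differed. The library with fewest clusters had the highest 3′ UTR share and that with most clusters, control upper replicate 2, the lowest. The part of coding-sequence share and of cluster number in the difference was not tested. Median relative position, where 0 is the stop codon and 1 the transcript end, was 0.407 ± 0.0225 with glucagon and 0.416 ± 0.0139 in control (SD, n = 4 each). The difference was within the spread of the libraries (exact permutation test, p = 0.556, adjusted 0.833).

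The share above input did not move one way with glucagon. It was 0.943% and 0.686% in glucagon lower, against 0.952% and 1.32% in control lower. In the upper band it was 0.923% and 1.29% with glucagon, against 0.666% and 0.834% in control. All clusters of the same libraries gave 5.84% and 3.52% in glucagon lower, against 5.47% and 6.28% in control lower, and 7.55% and 9.17% in glucagon upper, against 5.21% and 6% in control upper. In 3′ UTRs, glucagon libraries were below both controls in the lower band and above both in the upper band. Over both bands the 3′ UTR difference was 0.0160 points (exact permutation test, p = 1).

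Between bands, the upper band held 6.13 ± 1.12% of its clusters in 3′ UTRs and the lower band 7.41 ± 1.57% (SD, n = 4 each), a difference of −1.28 points (exact permutation test, p = 0.111, adjusted 0.167). Without glucagon lower replicate 1 it was −0.637 points. Median relative position was 0.423 ± 0.00694 in the upper band and 0.400 ± 0.0191 in the lower (exact p = 0.111, adjusted 0.167). The share above input was 0.927 ± 0.262% in the upper band and 0.976 ± 0.261% in the lower (exact p = 0.778, adjusted 0.778).

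No gene had a 3′ UTR cluster above input in at least 3 more glucagon than control libraries, where 0.451% of genes did for any cluster. In the other direction 3 genes did, or 0.0416%, against 1.59% for any cluster. Ccnt1, the cyclin T1 subunit of P-TEFb, was above input in 1 glucagon and 4 control libraries. Mpdu1, which serves the use of dolichol-linked sugars, was above input in 0 glucagon and 3 control libraries. These folds are the authors' within a library, and the counts were not tested.

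For the bands the same rule gave 5 genes with more upper libraries (0.0693%, against 2.76% for any cluster) and 3 with more lower libraries (0.0416%, against 0.0368%). Kpna4, an importin α, and Kank2 were above input in 4 upper and 0 lower libraries. Zmat3, Ppp2ca and D17Wsu92e were above input in 3 upper and 0 lower libraries. Qsox1, a sulfhydryl oxidase of the secretory pathway, was above input in 0 upper and 4 lower libraries, with those 4 of its 44 clusters lying 764 to 778 nt after the stop codon. Insr, the insulin receptor, and Nras, a small GTPase, were above input in 0 upper and 3 lower libraries. The highest Qsox1 log2 fold was 0.66 and 0.56 in glucagon upper and 0.27 and 0.90 in control upper, against 1.29 and 1.35 in glucagon lower and 1.37 and 1.63 in control lower. The calls of the other genes did not all follow the fold, since a call also needs the p threshold. The highest Kank2 log2 fold was 2.94 and 2.31 in glucagon upper and 2.61 and 2.20 in control upper, against 3.05 and 3.43 in glucagon lower and 1.71 and 1.61 in control lower. The highest in any lower band library was 3.65 for Zmat3 and 3.61 for Ppp2ca, although neither was above input there. For Nras, above input in lower libraries only, the highest fold was 2.60 in the upper band and 2.32 in the lower band.

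Among the gene lists, the glucagon and cAMP response genes had the largest share above input. Of 29 with a 3′ UTR cluster, 7 had one above input in at least 1 library, or 24.1%, beside 3.16% of all genes, and their median number of clusters was 12 beside 7. They were Slc25a25, Btg2, Per1, Igfbp1, Tat, Sik1 and Dusp1. None was above input in both libraries of a group. Slc25a25, a mitochondrial carrier of adenine nucleotides, had 4, 15, 8 and 13 clusters in the glucagon libraries (lower 1, lower 2, upper 1, upper 2), against 4, 1, 3 and 5 in the control libraries. Its clusters above input numbered 0, 1, 0 and 4 in the glucagon libraries and none in control. The cluster numbers of the treatments overlapped, since 1 glucagon library had 4 and 1 control library 5. Btg2, an antiproliferative factor that recruits deadenylases, and Per1, a clock repressor, were above input in 1 glucagon and 1 control library each. Per1 also counted with Csnk1d and Rora among 3 of 14 circadian clock genes.

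In lipid and cholesterol synthesis 1 of 24 genes was above input. This was Gpam, the mitochondrial enzyme that starts glycerolipid synthesis, with 1, 3, 2 and 3 clusters above input in the glucagon libraries, against 1, 0, 0 and 1 in the control libraries. Gpam was thus above input in 4 glucagon and 2 control libraries. Insulin and FoxO signalling had 2 of 23 (Insr and Pik3r1), splicing factors and hnRNPs 3 of 40 (Srrm2 and Tardbp among them), and 3′ UTR binding and decay factors 2 of 29 (Ago2 and Tnrc6b, in 1 library each). Selenoproteins had 1 of 13 (Selenoi), nuclear receptors and coregulators 1 of 22 (Rxra), secreted plasma proteins 1 of 35 (Igfbp1) and the urea cycle and amino acid list 1 of 19 (Tat). No member was above input among 18 gluconeogenesis and glycolysis genes, 18 of fatty acid oxidation, 14 cytochrome P450 and bile acid genes, 37 of oxidative phosphorylation and 20 ribosomal protein genes. These 5 lists together had 107 genes and 807 clusters, in which the shares over all genes and clusters, 3.16% and 0.943%, would amount to 3.38 genes and 7.61 clusters. A count of 0 in any one of these lists is near those shares and is not read as a result about the list.

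The authors' deposited lists of reproducible peaks held 8 peaks in 3′ UTRs. There were 0 of 413 peaks in glucagon lower, which allows a share of up to 0.726%, and 0 of 2167 in glucagon upper, which allows up to 0.138%. There were 4 of 2206 (0.181%) in control lower and 4 of 3692 (0.108%) in control upper. The limits cover counting error only. Control lower listed 2 in Mafg and 1 each in Ntn3 and Rbm14, and the control upper peaks included Zfp787, D17Wsu92e and Nfix. The middle 30 bases are shown for 4 of the genes not shown above, because these are 3′ UTR regions that the authors' lists kept, with runs of 3 or more G in capitals.
Zfp787: ccctcGGGctcggtGGGaactaccagtgtg
D17Wsu92e: aaacctacaatgctagaccaccactgccca
Nfix: aGGGGcaggcaggcaGGGacgatgaGGGcg
Ntn3: cccggctttcctcgatcatccctgccttct

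Absence from the glucagon lists did not mean absence of clusters. At the Zfp787 peak (chr7:6132014-6132103, a zinc finger gene) the log2 fold was 4.60 in glucagon lower replicate 2 and 2.91 in glucagon upper replicate 2, both above input, against 4.20 and 4.34 in the control upper libraries. The Rbm14 peak (chr19:4800745-4800801), in the message of an RNA-binding coactivator found in paraspeckles, was above input in 2 glucagon libraries, with log2 folds of 2.26 and 2.25, against 2.91 to 4.63 in the 4 control libraries. The Ntn3 peak (chr17:24205184-24205330) was enriched in glucagon upper replicate 2 at 3.78, against 4.14 and 4.20 in the control lower libraries. The Rbm14 and Ntn3 peaks lay inside another gene, and the D17Wsu92e peak (chr17:27767797-27767868) in an intron of another transcript. The D17Wsu92e peak also reached past its 3′ UTR (chr17:27767489-27767862) on the side of the stop codon. The D17Wsu92e and Nfix (chr8:84706563-84706635) peaks were above input in no glucagon library.

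The 3′ UTR clusters above input were richer in guanine than the others, in measures added after the data were seen. Guanine made up 30.7 ± 1.22% of their bases and 24.998 ± 0.589% of those of the other 3′ UTR clusters (SD, n = 8), a difference of 5.68 points that was higher in 8 of 8 libraries (exact sign-flip test, p = 0.00781, adjusted 0.0104 over 4 bases). Adenine, cytosine and thymine differed by −2.04, −2.03 and −1.61 points, with adjusted exact p-values of 0.0104, 0.0156 and 0.0104. Within the same genes the guanine difference was 3.46 points. The difference was larger among coding-sequence clusters, at 9.27 ± 2.43 points, and 3′ UTR minus coding sequence came to −3.59 points (exact sign-flip test, p = 0.0156, higher in 1 of 8 libraries), so guanine content was not particular to the 3′ UTR.

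**Figure D5:**
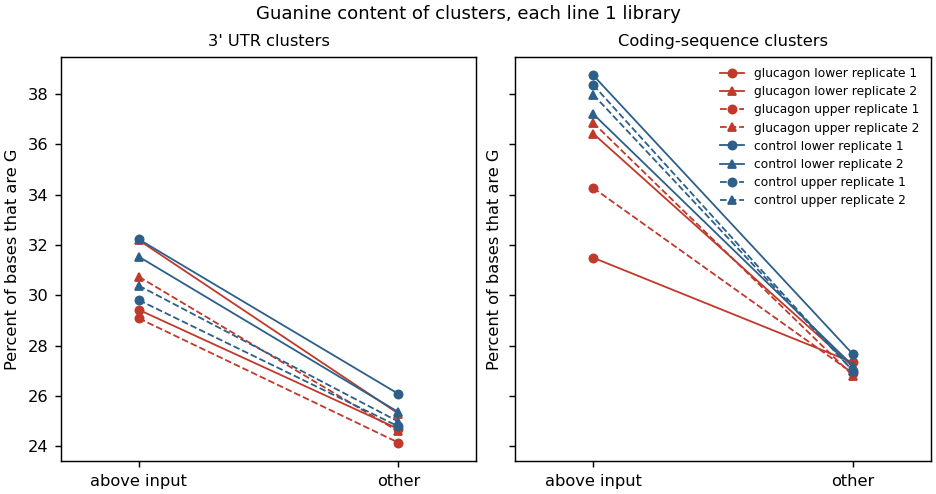
Each line is 1 library and joins the percent of G in its clusters above input (left point) to that in its other clusters (right point), for 3′ UTR and coding-sequence clusters, on an axis that does not start at 0. All 8 lines fell to the right in both panels, with 3′ UTR means of 30.7% above input and 24.998% in the others.

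Short motifs were counted on the transcript strand in windows of 30 nt centred on the cluster midpoints and lying fully in the 3′ UTR. The motif GGG occurred in 49.0% of 769 windows above input and 32.8% of 80634 other windows. It occurred in 26.2% of all 407266 adjoining windows, taken from 3′ UTRs with any cluster and not only those with one above input. Its complement CCC occurred in 30.3%, 29.7% and 26.2%. By library the GGG share was 37.5% to 54.2% above input and 30.4% to 34.6% in the others, and the ranges did not overlap. With 1 window a gene it was 50.9% of 226 windows. GTGGG, which contains GGG and was picked after its share was seen, occurred in 10.9% above input, 5.03% of the others and 3.51% of all windows, and in 0 of 24 windows above input of glucagon lower replicate 1.

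Classical 3′ UTR elements were sparse in both sets of clusters. The poly(A) signal AATAAA occurred in 0.390% of windows above input, 1.13% of other cluster windows and 2.30% of all windows of these 3′ UTRs. The core AU-rich motif ATTTA occurred in 0.780%, 2.04% and 4.47%, and TTTTT in 1.95%, 2.64% and 7.71%. The Pumilio motif TGTANATA occurred in 0.52%, 0.50% and 0.54%. Uridine, read as T, made up 28.1 ± 0.803% of 3′ UTR clusters and 30.05 ± 0.0974% of the 3′ UTRs that held them (SD, n = 8), lower in 8 of 8 libraries (exact sign-flip test, p = 0.00781, adjusted 0.0104). Motif shares are descriptions, and no site or factor was tested.

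With the p threshold applied, clusters above input lay somewhat closer to the stop codon. Their median relative position was 0.357 ± 0.0403 and that of the other 3′ UTR clusters 0.412 ± 0.0177 (SD, n = 8), lower in 8 of 8 libraries (exact sign-flip test, p = 0.00781, adjusted 0.0104). Without the 10 leading genes the difference of −0.0550 became −0.0401 (exact p = 0.102). When every log2 fold over 0 counted, at any p, it turned to 0.0352 (exact sign-flip test, p = 0.00781), so its direction depended on the p threshold. The median length was 47 ± 2.14 nt for 3′ UTR clusters and 45 ± 1.60 nt for coding-sequence clusters (SD, n = 8; exact sign-flip test, p = 0.0156, adjusted 0.0179, longer in 7 of 8 libraries).

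Of all 3′ UTR clusters of a library, 11.9% to 58.0% overlapped any cluster of the other replicate of the group by at least 1 base, under 50% in 7 of 8 comparisons. Of 3′ UTR clusters above input in 1 library, 44.6% to 88.3% overlapped any cluster of the other replicate, and 8.70% to 53.6% overlapped one above input. The lowest of these values came from glucagon lower replicate 2 against glucagon lower replicate 1, the library with fewest clusters. In that pair 8 of 92 clusters above input had a partner above input, whereas in control lower 45 of 84 clusters of replicate 1 did.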

How the data were processed

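The submitters' processing notes name cutadapt, STAR and mm10 for these single-end eCLIP libraries, without versions. Which program called the peaks, and how the lists of reproducible peaks were made, is not given in the sources used here. The authors deposited 1 list of clusters per immunoprecipitation library and 1 list of reproducible peaks per group, each without a header. Of the values the authors gave each cluster, one was taken as a −log10 p-value over input, with a highest value of 400, and the other as a log2 fold over input, from their ranges. All 235236 clusters with a log2 fold below 0 had 0 as their −log10 p, so depletion has no p. Read depth is unknown, and intervals on reads could not be formed.

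Clusters were placed by midpoint and strand on GENCODE M21 (mm10), with 1 transcript per gene. A midpoint in the 3′ UTRs of several genes (312 clusters) went to the gene with the longest coding sequence. Placement matched bedtools for all 2546 clusters of 1 library. Each library gave 1 value per measure, and comparisons used exact two-sided permutations within bands or treatments (36 assignments) or exact sign flips over 8 libraries (256), with Benjamini-Hochberg adjustment over tests of a kind. The tests were tested on simulated data. Sequences came from the GENCODE M21 transcripts, where 19747 of 19752 3′ UTRs followed a stop codon.

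Genes named were the 12 enriched in most libraries, the 10 with most clusters, those with at least 3 libraries more in one treatment or band, those with a listed peak, and up to 3 per gene list; some genes that this rule names are not reported here. Genes printed with a recurrent site, base composition, motifs and the settings so marked were chosen after the values were seen. The 3′ UTR clusters, gene lists and tests were all chosen with earlier results of these data known, so no list is independent support. Clusters on chromosome 18 (2104) entered all counts, but none of their sequence is printed. Software was Python 3.11.15 with scipy 1.17.1, numpy 2.4.6 and pandas 2.3.3, matplotlib 3.10.9 for figures and bedtools 2.31.1 for the check of placement.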

Additional observations from a re-analysis of the deposited data

Results flagged for a closer look

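The glucagon difference in the share of 3′ UTR clusters above input ran in opposite directions in the 2 bands. In the lower band the shares were 0.943% and 0.686% with glucagon, against 0.952% and 1.32% in control, a difference of −0.322 points. In the upper band they were 0.923% and 1.29% with glucagon, against 0.666% and 0.834% in control, a difference of 0.354 points. Over all clusters of the upper band the order was the same, at 7.55% and 9.17% against 5.21% and 6%. Over all clusters of the lower band the treatments overlapped, at 5.84% and 3.52% with glucagon against 5.47% and 6.28% in control. How far the 3′ UTR shares follow those of the whole library was not tested. The lower minus the upper band difference was −0.677 points, and an exact permutation of the treatment labels within bands gave p = 0.0556, the smallest that its 36 assignments allow. The exact 95% binomial intervals of single libraries were as wide as 0.605% to 1.40% in glucagon lower replicate 1, where 24 of 2546 clusters were above input.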

How the results depend on the processing

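Of 269 recomputed values, 245 kept their direction and their side of the threshold, or for counts and untested values stayed within range, 10 were weaker, 12 turned and 2 moved. The share above input against coding sequence was 0.143 points (exact p = 0.0703) with clusters in other genes or coding sequence left out, −0.0687 without the 10 leading genes and 0.201 to 0.278 with each library left out. In genes with a cluster in all 8 libraries, the glucagon difference in the share above input was −0.345 points and the length difference 1.75 nt (exact p = 0.0938). With every log2 fold over 0 counted at any p, the position difference was 0.0352 and the guanine difference of 3′ UTR minus coding sequence 0.461 points. The position difference was −0.0401 without the 10 leading genes, and adenine within the same genes −0.310 points (exact p = 0.539). At a −log10 p of at least 5 there were 72 genes above input in place of 228, and 13 in place of 37 in at least 4 libraries. Leaving out each library gave −0.0764 to 0.108 points for the share above input by treatment, −0.141 to 0.0439 by band, and −0.0191 to 0.00134 for position by treatment, so those 3 have no stable direction. Other ranges were 1.19 to 2.47 points for the 3′ UTR share by treatment, −1.92 to −0.637 by band, 0.0125 to 0.0329 for position by band, 14.3 to 15.8 for clusters near the stop codon minus those near the transcript end, and 196 to 222 genes above input. The cause of these changes was not tested. Replicate numbers gave correlations of 0.00996 to 0.230 between deviations of same-numbered libraries, over 0.1 in 3 of 6 pairs of groups and highest between the 2 glucagon bands. All 6 correlations were positive, so independence of same-numbered libraries was not shown. The pairing was not used in the main tests, and what same-numbered libraries share was not tested. With the replicate block the 3′ UTR share difference by treatment was again 1.83 points, because the same libraries are averaged in either case. The block allows fewer label assignments than the main test, which already could not reach a threshold of 0.05. Neither the difference nor its side of the threshold could change, so the block is no check of that difference. The number of clusters in glucagon lower replicate 1 limits every comparison of lower band libraries.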

Other observations

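A few genes were enriched in the 3′ UTR of 2 libraries each. Ly86, a protein of B cells and macrophages that pairs with CD180, had 6 clusters in a 3′ UTR of 414 nt. Of these, 2 were enriched, in replicate 1 of both glucagon groups, at log2 folds of 6.93 (lower) and 3.78 (upper). In replicate 2 of those groups the log2 fold was 2.43 and 3.05, and in the 2 control libraries with a cluster it was 2.40 and 1.73, none of them above input. Rbm3, a cold-inducible RNA-binding protein, was enriched in 1 glucagon and 1 control library of the lower band, at log2 folds of 3.93 and 4.52. C130074G19Rik was enriched in 2 glucagon libraries and Fbxl18, an F-box protein, in 2 upper band libraries.

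Other messages above input in at least 4 libraries, named after their values were seen, follow. Hspa5, the endoplasmic reticulum chaperone BiP, had 9 of 34 clusters above input within 7 to 262 nt of the stop codon, at log2 folds of 0.47 to 0.81. Ctnnb1, the β-catenin message, had 5 of 49, in 2 glucagon and 2 control libraries. Rtn4, which shapes endoplasmic reticulum tubules, had 12 of 51, in 2 glucagon and 4 control libraries.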
